A study of Mus musculus with 150 samples.

Results

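Morc1 occupies bases 48431237 to 48630905 of mouse chromosome 16 (mm10), a length of 199669 bp. The deposited chromosome 16 table holds a replication timing score at 19641 positions spaced 5 kb apart, and 40 of them lie in Morc1. Those 40 positions were taken by coordinates, without reference to their values, and divided from left to right into 3 sections of equal length (left, 13 positions; middle, 13 positions; right, 14 positions). The gene was described by its mean score, by the score of each section, and by its slope, the least-squares change in score per 100 kb from left to right. RefSeq places no other protein-coding gene inside Morc1, and the lncRNA gene Gm41458 lies within its right section. The nearest protein-coding genes are Dppa2, 111.7 kb to the left, Dppa4, 136.9 kb to the left, and Trat1, 99.9 kb to the right.

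Chromosomal DNA is copied during S phase in a set order, in which large domains fire early or late and are joined by regions where the timing changes gradually. Early replication usually goes with open, transcribed chromatin and late replication with compact, silent chromatin. Morc1 encodes an ATPase that represses transposable elements in the male germ line of the mouse, and its neighbours Dppa2 and Dppa4 encode DNA-binding proteins of pluripotent cells.

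The study used Repli-seq, in which newly made DNA is labelled with BrdU, cells in early S and in late S are collected separately, and the BrdU-labelled DNA of either fraction is sequenced. The mouse embryonic stem cells (mESC) carried CRISPR deletions or inversions, and each pair of fractions gave 1 profile. In hybrid cells every profile was split into a score for each parental allele. The cas/129 clones thus have a svim column (the 129 parent) and a cast column.

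Of the cas/129 clones, 2 lacked intervals a, b and c (abc.del), 2 lacked a and c (ac.del), 2 lacked a and b (ab.del), and 2 lacked b and c (bc.del). A further 2 clones lacked a (a.del), 2 lacked b (b.del) and 4 lacked c (c.del). Interval a (48308399 to 48311882) includes the first bases of Dppa2 on the map. Interval b (48396806 to 48437301) covers 6065 bp at the left end of Morc1, and interval c (48581359 to 48620367) is 39009 bp inside its right section. The 4kdel interval (48280115 to 48284009) reaches into the left edge of Dppa4 and was deleted alone (4kdel, 2 clones), with b (4k.b.del, 2 clones), and with b and c (4k.b.c.del, 1 clone). The other cas/129 genotypes were 680kdel and 680kinv (47900079 to 48581357 and 47900059 to 48581356), 245kdel (48336437 to 48581357), and deletions or inversions that end at least 94.8 kb left of Morc1. One of the latter, 145k.30kdel, also lacked a stretch to the right of the gene.

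All cas/129 clones listed for chromosome 16 were edited. The reference for them was 5 clones whose edits leave intervals a, b, c and the 4kdel interval in place: 30kdel B11 and C2 (48665576 to 48695490, to the right of Morc1), 29kdel D8, 14kdel D11 and 24.5kinv 3 (all to its left). They are called the comparison clones below, and all genotypes were set against the same 5, so the comparisons are not independent of each other. In all, 43 cas/129 clones of 26 genotypes were measured. Non-hybrid cells gave 15 profiles of 12 groups: unedited 46C cells, and cells whose edits are labelled homozygous, except the heterozygous 500kdel. The v6.5 hybrid background gave 3 clones, and the cas/129 clone 100kdel C3 gave 1 further profile titled NPC (neural progenitor cell). Non-hybrid cells grew in GMEM with serum and LIF and hybrid cells in DMEM with 2i and LIF, so background and medium cannot be told apart. A clone descends from 1 edited cell. The files hold no expression values, so the labelled cell type was not checked against marker genes.

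Read depth is unknown, and no source used here gives the scale of the score. A higher score was taken as earlier replication: in 123 of 123 columns, windows with 5 or more protein-coding genes, which are usually early, scored above windows with none, by 0.53 to 4.35. Repeat libraries of the same clone differed in the Morc1 mean by a median of 0.26 and at most 1.13 on svim (7 pairs), and by a median of 0.61 and at most 1.42 on cast. Their slopes differed by a median of 0.06 on svim and 0.15 on cast. Positions that a genotype lacks were left out of both alleles and of the clones compared with it, so the comparison values change slightly with the genotype. Of 21 hybrid profiles that lack Morc1 positions, 20 were blank there in the svim column and 1 (680kdel 79) in the cast column. The labels do not say which allele was edited.

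In the comparison clones Morc1 was early replicating and tilted slightly downward from left to right on both alleles. On svim its mean was 2.43 in 14kdel D11, 1.88 in 24.5kinv 3, 1.86 in 29kdel D8, 1.90 in 30kdel B11 and 2.69 in 30kdel C2. The group averaged 2.15 ± 0.386 on svim and 2.50 ± 0.633 on cast (SD, n = 5). Of 475 windows of the same length tiled over chromosome 16, 109 were earlier than Morc1 on svim, and the median window scored -1.35.

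The slope of the gene in these clones averaged -0.32 ± 0.377 on svim and -0.30 ± 0.168 on cast (SD, n = 5). On svim it was -0.17 in 14kdel D11, -0.80 in 29kdel D8, -0.29 in 30kdel B11 and -0.55 in 30kdel C2. Clone 24.5kinv 3 was the exception with a rising slope of 0.19. The median window of the chromosome had an absolute slope of 0.19, and 165 of the 475 windows were steeper than Morc1. The score first fell below 0 well past the right end of the gene, between 434 and 654 kb from its start.

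Deleting intervals a, b and c together made Morc1 late replicating along its whole length on svim. The mean was -2.57 in abc.del A6 and -3.14 in abc.del E2, and no comparison clone was below 1.86. Over the 31 shared positions the mean was -2.86 ± 0.404 in abc.del (SD, n = 2) and 2.20 ± 0.399 in the comparison clones (SD, n = 5). The difference was -5.06 ± 0.37 (SE), lower in 2 of 2 clones, with a limma adjusted p of 1.77e-06. In that comparison 4 of 476 windows of the chromosome passed the threshold, which is 0.84 percent, and Morc1 was one of them.

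Losing a with b, or a with c, also made Morc1 later on svim, to scores close to 0 or below it. In ab.del the mean was -0.31 in D10 and -0.00 in D12, so both clones lay below every comparison clone. The difference from the comparison clones was -2.30 ± 0.36 (SE, n = 2 and 5, limma adjusted p = 0.00345), with 0.84 percent of windows called. In ac.del the mean was 0.01 in E4 and -1.78 in H8, a gap wider than the whole range of the comparison clones. The ac.del difference was -3.09 ± 0.48 (SE, n = 2 and 5, limma adjusted p = 0.00249), again with 0.84 percent of windows called.

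These double deletion results were less firm than the triple deletion. After each column was rescaled to its far regions, the limma adjusted p was 0.92 for ab.del (difference -1.88) and 0.0885 for ac.del (difference -3.07). Without clone H8 the ac.del difference was -2.20 (limma adjusted p = 0.381). Without D10 the limma adjusted p of ab.del was 0.195, and without D12 it was 0.0611.

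The remaining interval genotypes shifted less, and none passed the threshold for the mean. The bc.del clones had means of 0.56 in B3 and 1.02 in D12, both below every comparison clone. Their difference was -1.41 ± 0.41 (SE, n = 2 and 5, limma adjusted p = 0.999, exact permutation p = 0.0476, the smallest possible). The c.del clones had means of 0.95 in A12, 0.46 in B11, 1.44 in C6 and 1.61 in C9, again all below the comparison clones. Their difference was -1.09 ± 0.31 (SE, n = 4 and 5, limma adjusted p = 0.486, exact permutation p = 0.00794, the smallest possible).

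Single deletion of a or b gave differences that did not pass the threshold. The a.del clones had means of 2.56 in clone 53 and 1.27 in G5, a gap larger than the range of the comparison clones, and a difference of -0.24 ± 0.42 (SE, n = 2 and 5, limma adjusted p = 0.679). The b.del clones had means of 1.62 in D10 and 1.81 in D6, both just below the 1.84 of the lowest comparison clone over the same positions, a difference of -0.43 ± 0.36 (SE, n = 2 and 5, limma adjusted p = 0.995, exact permutation p = 0.0952).

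The 4kdel interval was also deleted with b, and with b and c. The single 4k.b.c.del clone, G12, had a mean of -0.30, against 2.20 ± 0.399 in the comparison clones (SD, n = 5), and its difference was -2.50 ± 0.55 (SE, limma adjusted p = 0.0825). With 1 comparison clone left out at a time that difference ranged from -2.59 to -2.35. Whether it passed the threshold depended on which clone was left out. The spread of that difference comes from the comparison clones alone. The 4k.b.del clones B1 and B4 had means of 1.43 and 1.95, a difference of -0.46 ± 0.37 (SE, n = 2 and 5, limma adjusted p = 0.908).

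**Figure D1:**
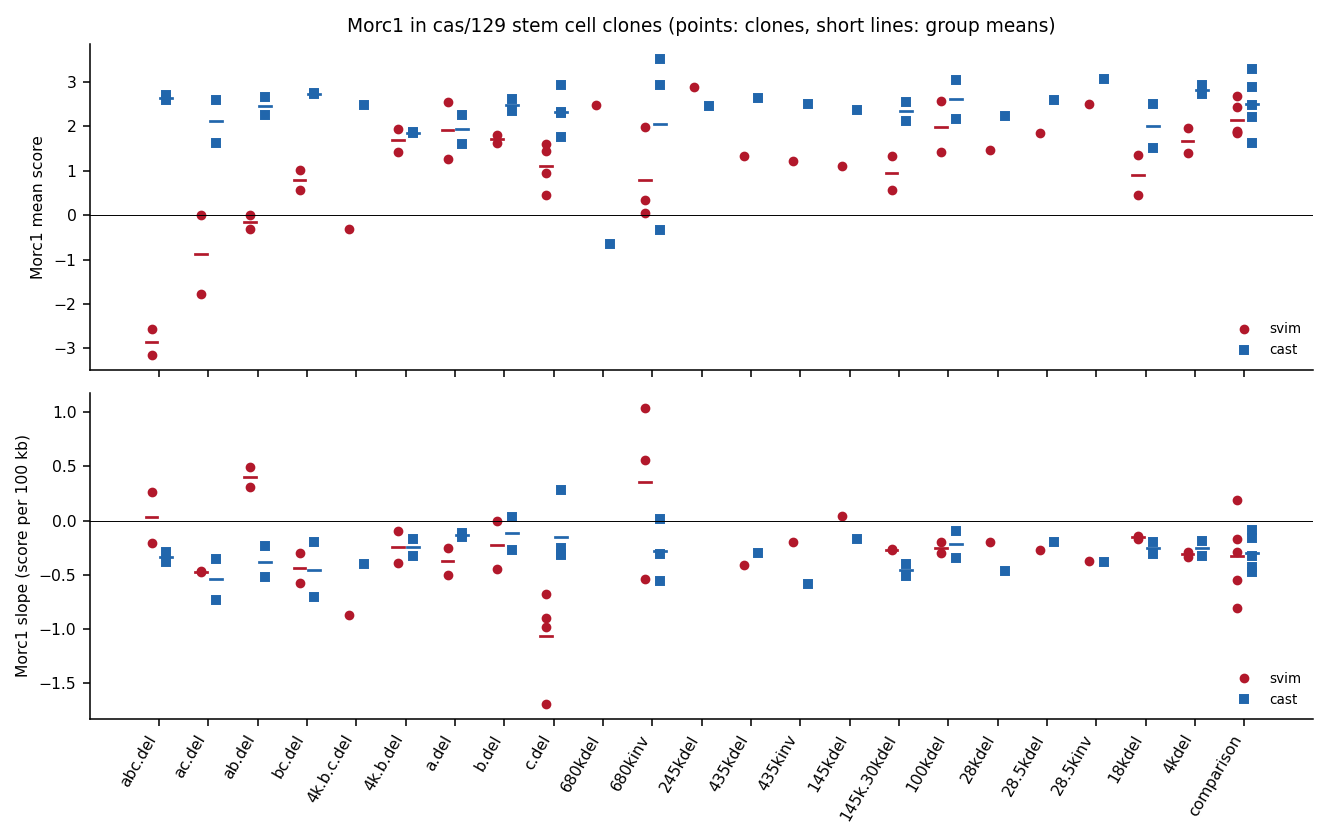
Morc1 mean score (top) and slope in score per 100 kb (bottom) in every cas/129 stem cell clone, by genotype, with the 5 comparison clones at the right. Circles are svim, squares are cast, and short lines are group means. The abc.del clones have the lowest svim means, -2.57 and -3.14, while the cast means of the same clones are 2.71 and 2.59.

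On the cast allele of the same clones Morc1 stayed early in most genotypes. The abc.del clones had cast means of 2.71 (A6) and 2.59 (E2), the ab.del clones 2.66 (D10) and 2.26 (D12), and the ac.del clones 2.61 (E4) and 1.62 (H8). The comparison clones lay between 1.63 and 3.29, and of these 6 clones H8 fell just outside that range. Elsewhere the cast mean was lower than that range in a.del G5 (1.61), 18kdel D6 (1.51), 680kinv 80 (-0.32) and 680kdel 79 (-0.65), and higher in 680kinv B10 (3.53). Across 22 genotypes no cast difference in the Morc1 mean passed the limma threshold, and 1 had an unadjusted p under 0.05.

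The difference between the alleles was tested directly as svim minus cast. Relative to the comparison clones it was shifted by -5.18 ± 0.29 in abc.del (SE, limma adjusted p = 1.81e-07, 1.05 percent of windows called). The shift was -2.66 ± 0.31 in ac.del (limma adjusted p = 0.00027) and -2.27 ± 0.31 in ab.del (limma adjusted p = 0.00117), with 0.842 percent of windows called in each. In bc.del the difference was -1.60 ± 0.29 (limma adjusted p = 0.0331, 0.421 percent called), and in 4k.b.c.del it was -2.46 ± 0.39 (limma adjusted p = 0.00979, 0.632 percent called). The 680kdel clone went the other way, at 3.53 ± 0.46 (limma adjusted p = 0.00206, 0.423 percent called). The 4k.b.c.del and 680kdel values come from 1 clone each against 5, have no replicate check, and take their spread from the comparison clones. After quantile normalization the abc.del and ac.del calls remained and the other 4 missed the threshold, with limma adjusted p between 0.057 and 0.39. The bc.del call was also lost without either of its clones and without either 30kdel clone, and the ab.del call without D10 (limma adjusted p = 0.0703).

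Within Morc1 the ab.del loss of earliness on svim was largest at the left end and shrank toward the right. It was larger still left of the gene, where the difference was -3.81 at -196 kb from the Morc1 start. The left section of Morc1 scored -0.61 in D10 and -0.36 in D12. The middle section scored -0.17 and 0.01, and the right section -0.18 and 0.30. Relative to the comparison clones the difference was -2.86 ± 0.40 in the left section, -2.24 ± 0.36 in the middle section and -1.89 ± 0.39 in the right section (SE, n = 2 and 5), with limma adjusted p of 0.00148, 0.00585 and 0.0283. Of all windows, 0.84 percent passed in the left and in the middle section and 0.842 percent in the right section. The right section missed the threshold after rescaling (limma adjusted p = 0.919), after quantile normalization (limma adjusted p = 0.116), and without either ab.del clone or either 30kdel clone.

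The single c.del deletion showed the opposite tilt, with the largest difference at the right end. The left section scored 1.45 in A12, 0.92 in B11, 1.78 in C6 and 2.51 in C9, which overlaps the 1.72 to 3.05 of the comparison clones. The right section, over the 6 positions that c.del keeps there, scored 0.17 in A12, -0.26 in B11, 0.88 in C6 and 0.32 in C9, all below the 1.38 of the lowest comparison clone, 29kdel D8. The difference was -0.71 ± 0.36 in the left section, -1.20 ± 0.31 in the middle section and -1.68 ± 0.32 in the right section (SE, n = 4 and 5). The right section passed the limma threshold (adjusted p = 0.017, 0.421 percent of windows called), and the left (0.932) and middle (0.353) sections did not. That call was lost after rescaling (limma adjusted p = 0.999), narrowly after quantile normalization (0.0522), and without A12, B11 or 30kdel C2 (0.0888 to 0.145).

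In c.del the svim score first fell below 0 at 204 kb from the Morc1 start in A12, 129 kb in B11, 304 kb in C6 and 204 kb in C9. The comparison clones reached that point at 434 to 654 kb. Clones of other genotypes also crossed 0 before 434 kb on svim. They included bc.del B3 (259 kb) and D12 (244 kb), and 4kdel C6 (414 kb) and G4 (424 kb). In a.del, G5 crossed at 314 kb and clone 53 at 474 kb. An early crossing was thus not particular to c.del, and it was not tested. The most negative c.del difference, -2.20, lay 309 kb from the Morc1 start, to the right of the gene.

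**Figure D2:**
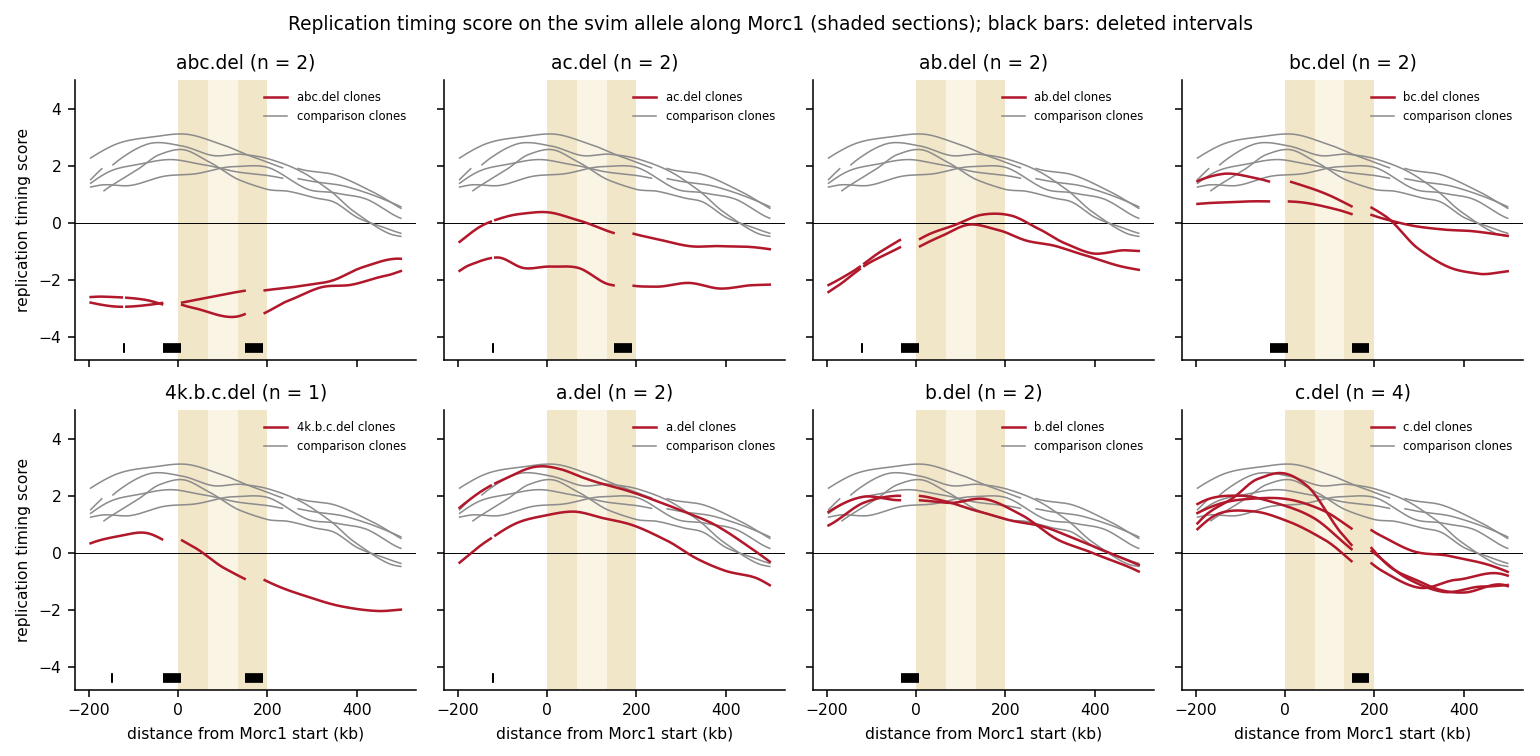
Replication timing score on svim against distance from the Morc1 start for the clones of 8 genotypes, with the 5 comparison clones in grey in every panel. Shading marks the sections of Morc1, black bars mark deleted intervals, and gaps are positions left out. Within Morc1 the ab.del D12 line climbs toward the right. The ab.del D10 line climbs at first to a highest value of -0.06 and then turns down to -0.32. The c.del lines descend, and both abc.del lines stay below -2 throughout the gene.

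The ac.del, abc.del and bc.del genotypes shifted more evenly along the gene. In ac.del the difference was -3.01 in the left section, -3.10 in the middle section and -3.22 in the right section (limma adjusted p of 0.00441, 0.00267 and 0.00256), with 0.632, 0.842 and 0.842 percent of windows called. The right section of ac.del missed the threshold after rescaling (limma adjusted p = 0.0829) and without H8 (0.301). In abc.del the difference was -5.22, -5.04 and -4.76 (limma adjusted p of 2.58e-06, 3.21e-06 and 2.19e-06), with 0.84, 0.84 and 0.842 percent of windows called. In bc.del the difference was -1.36, -1.41 and -1.50, and no section passed the threshold.

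The 4k.b.c.del clone also scored lower toward the right, with a slope of -0.87 against -0.83 in comparison clone 29kdel D8 over the same positions. Its sections scored 0.18, -0.48 and -0.89 from left to right, and the differences were -2.18 ± 0.59, -2.63 ± 0.55 and -2.85 ± 0.58 (SE, 1 clone against 5). Its right section passed the limma threshold (adjusted p = 0.0264, 0.421 percent of windows called), with the spread taken from the comparison clones, but not after rescaling (0.996), after quantile normalization (0.127) or without 30kdel C2 (0.165).

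**Figure D3:**
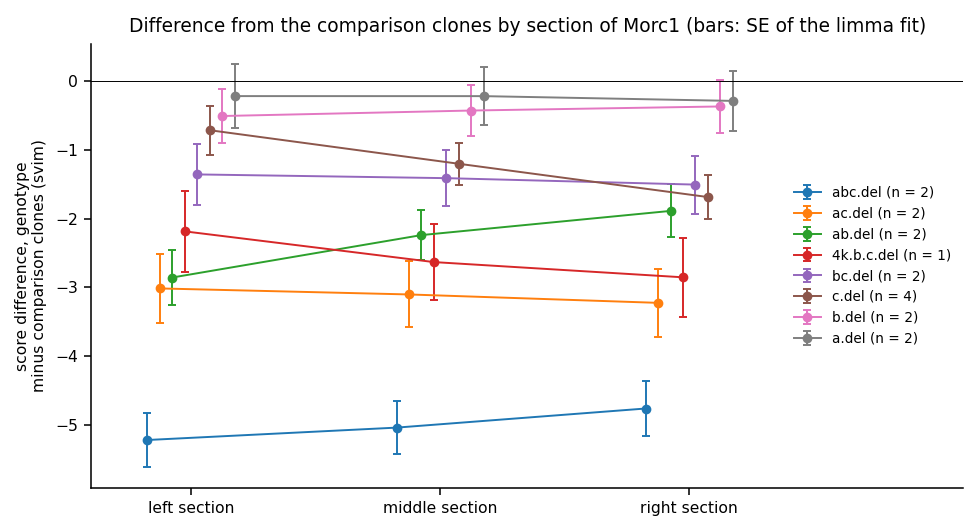
Score difference on svim, genotype minus comparison clones, in the left, middle and right sections of Morc1, with the SE of the limma fit as bars. The ab.del line climbs from -2.86 to -1.89, the c.del line descends from -0.71 to -1.68, and the ac.del line stays between -3.01 and -3.22.

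As a slope, the same contrast did not pass the threshold adjusted over all windows. The svim slope was 0.31 in ab.del D10 and 0.50 in ab.del D12, above the 0.19 of the highest comparison clone. The difference from the comparison clones was 0.73 ± 0.24 per 100 kb (SE, n = 2 and 5, limma adjusted p = 0.792, exact permutation p = 0.0952), and 0 percent of windows were called. In c.del the slope was -0.98 in A12, -0.90 in B11, -0.67 in C6 and -1.69 in C9. A12, B11 and C9 were steeper than 29kdel D8, the steepest comparison clone, and C6 was not. The difference was -0.73 ± 0.23 per 100 kb (SE, n = 4 and 5, limma adjusted p = 0.447, exact permutation p = 0.0317), also with 0 percent of windows called.

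With the cast slope of each clone subtracted, the groups stood further apart. The svim minus cast slope was -0.91 ± 0.520 in c.del (SD, n = 4) and 0.00 ± 0.227 in the comparison clones (SD, n = 5), with no overlap (difference -0.92 ± 0.22 SE, exact permutation p = 0.00794, limma adjusted p = 0.215). With each of the 9 clones left out in turn that difference ranged from -1.10 to -0.74 (limma adjusted p of 0.0428 to 0.478). It passed the threshold only without C6. The cast slope of A12, 0.28, stood apart from those of the other c.del clones. In ab.del the svim minus cast slope was 0.78 ± 0.0646 (SD, n = 2), against -0.03 ± 0.259 in the comparison clones (SD, n = 5), a difference of 0.81 ± 0.20 (SE, exact permutation p = 0.0476, limma adjusted p = 0.401). Across the 20 genotypes with a slope, no window of the chromosome passed the limma threshold for the svim slope in any comparison, and between 2 and 36 windows had an unadjusted p under 0.05.

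The slope was also compared directly between genotypes, in a fit of all interval genotypes. It was 0.94 ± 0.30 per 100 kb higher in ab.del than in ac.del, with an unadjusted limma p of 0.00602 and an adjusted p of 0.898. It was 0.85 ± 0.26 higher in b.del than in c.del, with an unadjusted limma p of 0.00447 and an adjusted p of 0.992. The means of ab.del and ac.del differed by 0.68 ± 0.52 (SE, limma adjusted p = 0.999). These direct contrasts were chosen after their values had been seen.

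The ac.del clones had nearly identical svim slopes, -0.47 in E4 and -0.48 in H8, although their means were far apart. The abc.del clones had slopes of 0.26 in A6 and -0.20 in E2, so the late gene had no shared tilt. Of 41 cas/129 clones with a slope, 34 sloped downward on svim and 38 on cast.

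**Figure D4:**
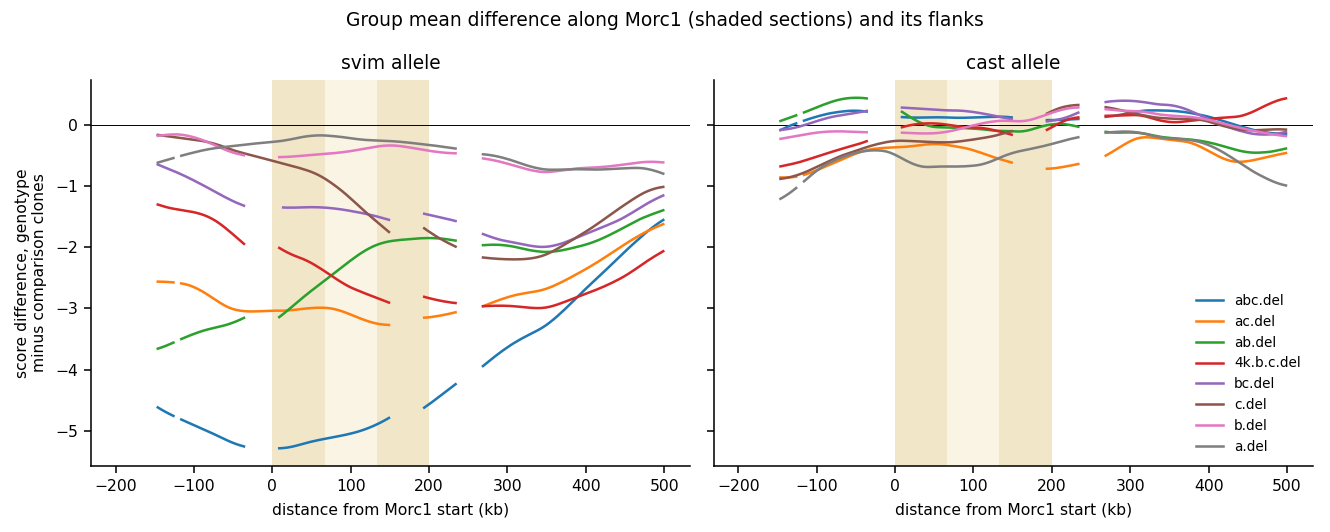
Group mean score difference, genotype minus comparison clones, against distance from the Morc1 start, on svim (left panel) and cast (right panel). On svim the abc.del difference runs from -5.29 at the left end of Morc1 to -4.58 at its right end. Between the same ends the ab.del difference runs from -3.14 to -1.85 and the c.del difference from -0.60 to -1.74. Within Morc1 the cast lines of abc.del, ab.del and c.del lie closer to 0. Far left of the gene the c.del cast line lies further from 0 than its svim line, with -0.88 against -0.16 at -146 kb.

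Further contrasts asked what the loss of 1 more interval added to the Morc1 mean on svim. Removing a in addition to b and c changed it by -3.64 ± 0.52 (abc.del against bc.del, SE, limma adjusted p = 0.000247, 0.63 percent of windows called). Removing c in addition to a changed it by -2.86 ± 0.52 (ac.del against a.del, limma adjusted p = 0.012, 0.21 percent called). Removing c in addition to a and b changed it by -2.64 ± 0.52 (abc.del against ab.del, limma adjusted p = 0.0311, 0.21 percent called). The other contrasts of this kind missed the threshold. They were -2.19 ± 0.52 for ab.del against a.del (limma adjusted p = 0.0774), -1.97 ± 0.52 for ab.del against b.del (0.204), -1.98 ± 0.45 for ac.del against c.del (0.0694) -1.96 ± 0.52 for abc.del against ac.del (0.309), -0.97 ± 0.52 for bc.del against b.del (0.998) and -0.30 ± 0.45 for bc.del against c.del (0.998).

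Leaving out single clones moved some of these past the threshold. The contrast of ab.del against a.del passed without a.del G5 (-2.84, limma adjusted p = 0.029) or either ac.del clone (-2.19, 0.0192). The contrast of ac.del against c.del passed without c.del B11 (-2.20, 0.0395), ac.del E4 (-2.87, 0.00472), either a.del clone (-1.98, 0.0332) or 24.5kinv 3 (-1.98, 0.05), with limma adjusted p as the second value. The contrast of abc.del against ac.del passed without H8 (-2.86, limma adjusted p = 0.0281).

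The ac.del and ab.del contrasts rested on single clones or on the scaling. The difference between ac.del and a.del was -1.97 without H8 (limma adjusted p = 0.429) and -2.21 without a.del 53 (0.562). The abc.del against ab.del call was lost after rescaling (limma adjusted p = 0.216) and without any 1 of the clones of either genotype or of b.del (0.0519 to 0.916). The abc.del difference departed from the sum of the 3 single differences by -3.28 ± 0.84 (SE, limma adjusted p = 0.141), which passed the threshold after quantile normalization (-3.83, limma adjusted p = 0.0328) and without either ac.del clone (-3.27, 0.0373).

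The next genotypes carry edits to the left of Morc1. The 435kdel, 145kdel, 145k.30kdel, 100kdel, 28.5kdel and 28kdel deletions all contain interval a. In the 14 clones of 10 such genotypes the svim mean ran from 0.45 to 2.57 and the slope from -0.41 to 0.05. The svim mean was below every comparison clone in 11 of the 14 clones, but only just in 28.5kdel A10 (1.85 against 1.86 in 29kdel D8). The matching share was not computed for other windows, so this count is a description. None of the genotypes passed the limma threshold. The 18kdel clones D6 and E12, at 0.45 and 1.35, and the 145k.30kdel clones A3 and E12, at 1.33 and 0.56, all lay below the comparison clones. The 18kdel difference was -1.25 ± 0.39 and the 145k.30kdel difference -1.20 ± 0.38 (SE, n = 2 and 5, limma adjusted p of 0.997 and 0.999, exact permutation p = 0.0476 each, the smallest possible).

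The 680kinv inversion contains the left end of Morc1 up to 150.1 kb from its start, and the scores are given in the order of the unedited chromosome. On an inverted chromosome the 30 positions of that part are reversed and lie apart from the rest of the gene. A mean or slope over Morc1 then joins separated pieces, and the slope is not a gradient along that chromosome. The clones split by allele. In B10 the mean was 0.04 on svim and 3.53 on cast, in C5 it was 0.34 on svim and 2.94 on cast, and in clone 80 it was 1.99 on svim and -0.32 on cast. In the unedited order the allele with the low mean rose in B10 (svim, slope 1.04) and in C5 (svim, slope 0.56). It was flat in clone 80 (cast, slope 0.01). The average svim difference was -1.36 ± 0.41 (SE, n = 3 and 5, limma adjusted p = 0.699), over clones that differ in which allele is low. Without clone 80 it was -1.96 (limma adjusted p = 0.0154).

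The 245kdel and 680kdel deletions leave 10 positions of Morc1, all in its right section, so a mean but no slope could be given. In 245kdel F9 these positions scored 2.89 on svim and 2.45 on cast, and the comparison clones scored 1.91 ± 0.430 on svim (SD, n = 5). In 680kdel 79 they scored 2.48 on svim and -0.65 on cast, where the comparison clones scored 2.32 ± 0.636 (SD, n = 5). The cast difference of 680kdel was -2.96 ± 0.64 (SE, 1 clone against 5, limma adjusted p = 0.235).

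**Figure D5:**
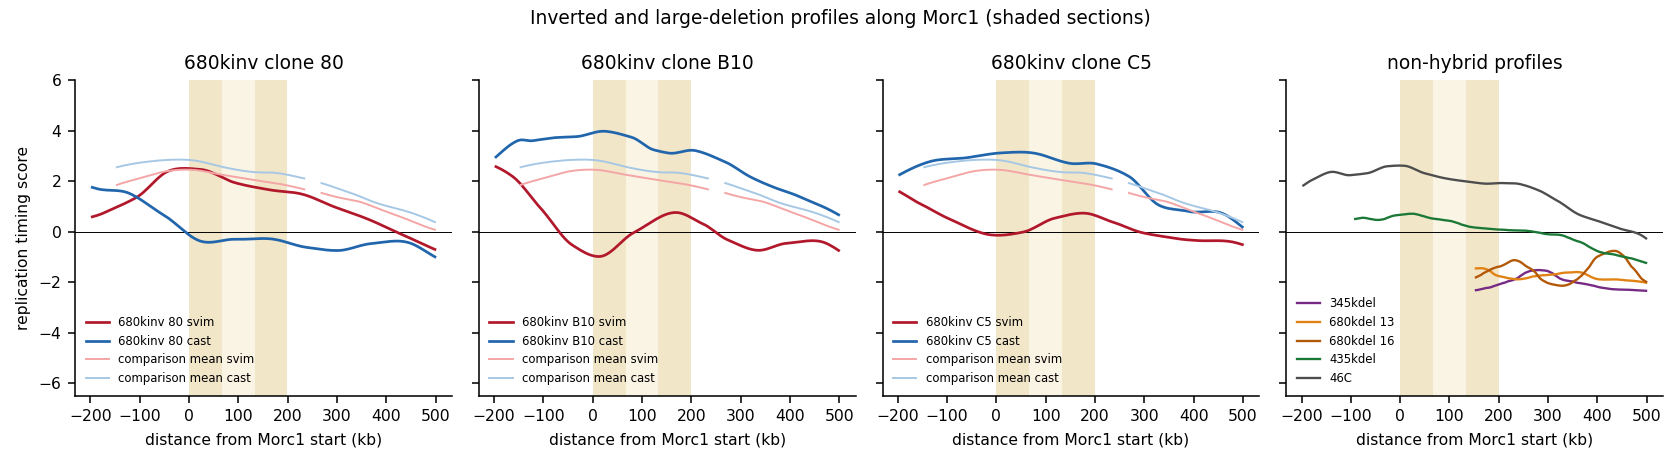
Score against distance from the Morc1 start in the 3 680kinv clones, both alleles, with the comparison means in pale colours, and in 5 non-hybrid profiles. Cast is the low allele in clone 80 (-0.32) and svim is the low allele in B10 (0.04) and C5 (0.34), and the 345kdel and 680kdel profiles lie below 0 where 46C is near 2.

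In non-hybrid cells the unedited 46C profile had a Morc1 mean of 2.15 and a slope of -0.38, both inside the range of the comparison clones on svim. All 9 non-hybrid profiles with a slope sloped downward, between -0.66 and -0.06. Of the large deletions, 345kdel and 680kdel made the remaining right end of the gene late. It scored -2.22 in 345kdel, and -1.55 and -1.58 in the 680kdel clones 13 and 16, against 1.92 in 46C. The 245kdel clones 25 and 28, which lack the same part of Morc1 and less to its left, scored 2.41 and 3.23. The other edits, which end left of Morc1, gave means between 1.68 (100kdel) and 2.45 (350kinv), apart from 435kdel.

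The 345kdel difference from 46C was -4.14 ± 0.48 (SE, 1 profile against 1, limma adjusted p = 0.0489, 0.63 percent of windows called). The 680kdel difference was -3.48 ± 0.42 (2 clones against 1, limma adjusted p = 0.068) and the 245kdel difference 0.91 ± 0.42 (2 clones against 1, limma adjusted p = 0.535). The 435kdel, which ends 94.8 kb left of Morc1, had a mean of 0.40 with a slope of -0.37, a difference from 46C of -1.76 ± 0.48 (1 profile against 1, limma adjusted p = 0.619). The spread in this fit came from 2 pairs of clones, and a lone profile was assumed to have the same spread. Without either 680kdel clone the limma adjusted p of 345kdel was 0.51, and with robust moderation it was 0.0544. Without either 245kdel clone the differences of 680kdel (2.14e-20) and 435kdel (8.84e-05) passed the limma threshold, and without clone 25 so did that of 245kdel (1.32, limma adjusted p = 0.00133), so these calls turn on which pair sets the spread. The slope fit had no residual spread at Morc1 itself, so no slope is tested here.

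The profile titled NPC showed Morc1 late on both alleles, with means of -4.16 on svim and -3.98 on cast and slopes of 0.22 and 0.34. The same clone, 100kdel C3, scored 2.57 on svim and 3.05 on cast as mESC, with slopes of -0.30 and -0.34. With 1 profile titled NPC there was no test. In v6.5 cells the Morc1 mean was 1.97 on svim and 1.50 on C57BL in 100kdel C6, 1.56 and 1.57 in 18kdel H5, and 2.32 and 2.47 in 435kinv A4, also without a test.

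Genes whose svim score followed that of Morc1 across the clones were its neighbours. Of 708 genes compared by Pearson's r, the lncRNA Gm5485, 18.8 kb to the left, had r = 0.94 (30 clones), Dppa4 had r = 0.86 (35 clones) and Trat1 had r = 0.84 (43 clones). Gm5485 lies inside interval b, so clones lacking b, abc.del among them, are not in its r. The r of Gm5485 rests on 3 positions and that of Dppa4 on 2. Dzip3, at 293.3 kb, had r = 0.68 and Cip2a, at 363.3 kb, r = 0.61 (43 clones each). Among the 681 genes over 2 Mb from every edit the highest values were 0.50 for Gm19522, 0.50 for 4932412D23Rik and 0.47 for Gap43 (43 clones each). These correlations are a description with no p, since neighbouring genes share positions or edits and all genes of a clone share its libraries.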

How the data were processed

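The deposited score (1 value per position and allele) was made by the authors from early and late S-phase libraries aligned to mm10; Bowtie2, SAMtools and bedtools are named per the submitters' processing notes. No source used here gives tool versions, smoothing, scaling or the log base. Every deposited score column has an interquartile range of 4.6, so columns were scaled before deposit. Of the value columns, 123 were used. A further 6, named for another cell line, matched no listed sample and were not used. They may hold an unedited hybrid reference, which was not examined. Edited clones therefore serve as the comparison in cas/129 cells. Repeat libraries were averaged, so n counts clones.

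Windows of 199669 bp were tiled over chromosome 16 with Morc1 as one of them, and kept with at least 8 positions (sections: 3). Each measure was tested over all windows with limma 3.58.1 in R 4.3.3 (two-sided, Benjamini-Hochberg adjustment, threshold 0.05). Differences were also tested by exact two-sided permutation of clones, whose smallest p is 0.0476 (2 clones against 5), 0.0179 (3 against 5) or 0.00794 (4 against 5). A clone is a labelled sample, so p-values measure the spread between clones. Among the comparison clones that spread also includes differences between their edits. Non-hybrid profiles were fitted together. The scripts were tested on simulated data. Alternatives left out each clone, rescaled or quantile-normalized the columns, left out 25 kb beside deletions, used a Theil-Sen slope or the right section minus the left section, and used robust moderation. Where interval c is deleted, leaving out 25 kb removes the whole right section. For those genotypes that alternative gave no value for the right section or the slope. Named were Morc1, its neighbours, the genes most like it (5 overall and 3 over 2 Mb from every edit), and clones that differ from another clone of their genotype by more than the range of the comparison clones. Morc1, the measures and the comparison clones were chosen with earlier results of these data known. Gene coordinates are RefSeq's for GRCm38.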

Additional observations from a re-analysis of the deposited data

Results flagged for a closer look

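The Morc1 mean shifted differently on the 2 alleles in 6 genotypes, by the limma test of svim minus cast against the comparison clones. The difference was -5.18 in abc.del, -2.66 in ac.del, -2.46 in 4k.b.c.del, -2.27 in ab.del and -1.60 in bc.del, and it was 3.53 in 680kdel. The 4k.b.c.del and 680kdel values are of 1 clone each, whose spread was taken from the comparison clones. In the first 5 the svim allele was the later one, and in 680kdel the cast allele was. The blank positions of these genotypes lie in the svim column in the first 5 and in the cast column in 680kdel.

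Among the 4 c.del clones, A12 stood apart in its cast slope, 0.28 against -0.32 to -0.25 in the other 3 clones. Clone C6 stood apart in the svim minus cast score of the right section, -0.64 against -2.56 to -2.44 in the others. These 2 values were past Dixon's critical ratio among 30 groups of clones looked at, and chance alone passes it in about 1 group in 20.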

How the results depend on the processing

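No paired analysis was possible because the replicate numbers in the labels mark repeat libraries of a clone, which were averaged, and do not pair clones across genotypes. For 48 results, the count of genotypes called among them, 654 values under alternatives were computed; 577 kept direction and side of the threshold, 42 lost the call, 22 gained it, 12 changed sign and 1 count moved. The abc.del mean kept its call under every alternative (-5.34 to -4.77 with a clone left out). The cause of the changes below was not tested.

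After rescaling to far regions, 1 genotype had the mean called lower on svim, against 3 in the columns as deposited. The calls for the ab.del mean (-1.88) and the ac.del mean (-3.07) were lost, and the a.del mean changed sign (0.43). Calls were also lost for the right section of ab.del (-1.47), c.del (-1.38), 4k.b.c.del (-2.50) and ac.del (-3.20), and for abc.del against ab.del (-3.00). After quantile normalization, calls were lost for the right section of ab.del (-1.57), c.del (-1.46) and 4k.b.c.del (-2.42). They were also lost for svim minus cast in 680kdel (2.98), ab.del (-2.03), bc.del (-2.13) and 4k.b.c.del (-2.33). The sign changed for the a.del mean (0.04) and for the slopes of a.del (0.04) and b.del (-0.01). Robust moderation ended the call of non-hybrid 345kdel (-4.14).

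With 1 clone left out at a time, the mean difference ranged from -2.46 to -2.15 in ab.del, from -3.98 to -2.20 in ac.del and from -0.88 to 0.40 in a.del. The slope difference ranged from -0.17 to 0.08 in a.del, from -0.12 to 0.32 in b.del and from -0.24 to 0.03 in bc.del. The right section ranged from -2.13 to -1.65 in ab.del, -1.89 to -1.51 in c.del, -3.00 to -2.75 in 4k.b.c.del and -4.14 to -2.30 in ac.del. Svim minus cast ranged from -2.62 to -1.91 in ab.del, with the call lost without D10, and from -1.85 to -1.36 in bc.del. Contrasts ranged from -3.76 to -1.97 (ac.del against a.del), -2.93 to -2.36 (abc.del against ab.del) and -0.21 to 1.57 (ab.del against ac.del). The 345kdel difference was -4.14 throughout, and its call was lost without either 680kdel clone. Calls gained are given beside their results, except for the mean of the single 4k.b.c.del clone. Slopes rest on at most 40 positions, and read depth is unknown, so counting error could not be separated from clone spread.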
